A study of Mus musculus with 10 samples.

Results

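The heat shock protein genes of the cytosol and mitochondria were followed in liver as 10 genes chosen by name, of which 9 were measured: Hspa1b, Hsph1, Dnajb1, Bag3, Hsp90aa1, Hspa8, Dnaja1, Hspd1 and Hspe1. Each of the 9 had 1 probe set that named it alone, a probe set being a group of short probes read together as 1 value. The array had 9977 probe sets that were not controls, and those with 1 symbol carried 7417 gene symbols in all. Hsp90ab1, which encodes the constitutive cytosolic HSP90, had no probe set under its symbol alone and was not analysed here. The members were grouped by textbook role into 5 stress-inducible genes (Hspa1b, Hsph1, Dnajb1, Bag3 and Hsp90aa1), 2 constitutive cytosolic genes (Hspa8 and Dnaja1) and 2 mitochondrial genes (Hspd1 and Hspe1).

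Liver RNA was taken from 10 female mice, 6 weeks old, fed chow and not fasted, with 1 mouse on each 1-colour Affymetrix MG_U74A array. The 5 SCD1 -/- mice, called Scd1-null or null here, carried the Scd1 -/- modification on a mixed 129 and C57BL/6J background. The 5 SCD1 +/+ mice, called wild type or WT, were C57BL/6J with no modification. The sources used here do not say how the Scd1 allele was made. All Scd1-null arrays came from one chip lot and all wild-type arrays from another, so genotype, strain background and lot cannot be told apart in any difference below. Since whole-liver RNA was measured, fewer cells of a type and less RNA per cell cannot be told apart either.

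Heat shock proteins are chaperones that bind unfolded proteins and use ATP to help them fold, or hand them on for degradation. In the cytosol HSP70 proteins work with J-domain partners, which deliver clients, and with nucleotide exchange factors, which release them, and HSP90 takes over part of the clients for late folding steps. Heat shock factor 1, a transcription factor held inactive by chaperones in unstressed cells, binds repeats of a short element in the promoters of the inducible genes and raises them when unfolded protein accumulates. In mitochondria a separate chaperonin of HSP60 rings capped by HSP10 folds imported proteins, which liver makes in large amounts.

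The element that heat shock factor 1 is known to bind is built from GAA units in alternating direction. It was searched in the promoters after several members were seen to differ, and its part in the differences was not tested. The searched letters were GAANNTTC and TTCNNGAA, each of which reads the same on both strands, in RefSeq windows of 300 bases that run from 250 bases before to 50 bases after a start site (build GRCm38.p6). Of all 32851 windows 15.1% held at least 1 of the pairs, and 0.603% held a run of 3 alternating units, that is a pair followed by any 2 bases and 1 more unit. A pair was held by the 1 window each of Hspa1b, Bag3 and Hspe1, by both windows of Hsph1, by 1 of the 2 windows of Hspd1 and by 1 of the 3 windows of Dnaja1. The windows of Hsph1 and Hspe1, and 1 of the 2 of Hspd1, held a run of at least 3 units. The Bag3 pair ends at the last base of its window, so a unit after it could not be seen. Neither of the 2 windows of Dnajb1 held one, which says only that these letters are not in those windows. Windows for Hspa8 and Hsp90aa1 were not used here. The stretches below show these elements for the members with a pair, 5′ to 3′ on the strand of the gene, with the matched element in capitals:
Hspa1b: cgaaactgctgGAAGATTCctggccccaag
Hsph1: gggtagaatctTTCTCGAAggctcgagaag
Hsph1, after the start site: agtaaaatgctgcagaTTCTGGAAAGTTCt
Bag3, after the start site: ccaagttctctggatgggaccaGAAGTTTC
Dnaja1: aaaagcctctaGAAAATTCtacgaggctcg
Hspe1: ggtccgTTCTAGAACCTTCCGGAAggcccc

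The Hspa1b stretch lay at chr17:34959324-34959353 on the minus strand, its element beginning 104 bases before the start site. The Hsph1 stretches lay on the minus strand at chr5:149636351-149636380, with the element 33 bases before a start site, and at chr5:149636287-149636316. The Bag3 stretch lay at chr7:128523603-128523632 on the plus strand and the Dnaja1 stretch at chr4:40722333-40722362 on the plus strand. Hspd1 and Hspe1 stand head to head, and the Hspe1 stretch, at chr1:55088053-55088082 on the plus strand, is the same place on the genome that the Hspd1 window holds on the minus strand. Its element of 18 bases begins 89 bases before the Hspe1 start site and 144 bases before that of Hspd1. A match is a description of the letters and was not tested for binding.

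The arrays agreed closely, the first principal component separated the groups, and 1 array stood apart on the second. Between arrays the log2 values correlated at 0.961 to 0.985. Before normalization the median intensity ran from 828 to 860 in Scd1-null and from 786 to 845 in wild type. The first principal component held 31.8% of the variance and ran from -15.3 to -7.1 in Scd1-null and from 5.76 to 17.5 in wild type. WT 4 stood apart on the second principal component, at 23.8 where the other 9 arrays lay between -7.23 and 1.65, and that component held 15% of the variance. A comment in the array files says that evaporation made the amount of cRNA of WT 3 inaccurate. The hybridisation times, split at gaps of over 1 hour, gave 3 groups of arrays, called fluidics runs here. Run 1 held null 1 to 4, run 2 held null 5 with WT 1 to 3, and run 3 held WT 4 and WT 5. The 3′ to 5′ signal ratio of the Gapdh control probe sets was 0.807 to 0.908 in Scd1-null and 0.803 to 0.928 in wild type. The same ratio of the actin control probe sets was 0.908 to 1.02 in Scd1-null and 0.845 to 0.951 in wild type, with 3 Scd1-null arrays above every wild-type array, and its part in the differences below was not tested. At its brightest probe set the targeted gene, Scd1, had a mean of 419 ± 308 in the Scd1-null and 17523 ± 2613 in the wild-type group (SD, n = 5 each), and no array overlapped the other group. All 7 measured hepatocyte markers, Alb and Ttr among them, passed the filter on dim values and none was called, by limma, while their summed intensity ran from 60657 to 78477 in Scd1-null and from 63355 to 78098 in wild type. Within that sum Alb read the same 28479 on every wild-type array after normalization, and Apoa1 read 1518 on null 2 and 1367 on WT 1. The sums therefore do not show equal hepatocyte content.

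Of the 9 measured heat shock genes, 4 were lower in Scd1-null liver and none was higher. The HSP70 genes Hspa1b and Hspa8, the HSP70 exchange factor Hsph1 and the HSP70 cochaperone Bag3 fell by 0.67 to 1.19 on the log2 scale, that is 1.59-fold to 2.28-fold. The other 5, which are the J-domain genes Dnajb1 and Dnaja1, the HSP90 gene Hsp90aa1 and the mitochondrial pair Hspd1 and Hspe1, differed by 0.01 to 0.33 and did not pass the test. The test was limma with Benjamini-Hochberg adjustment over all 7569 kept probe sets at a threshold of 0.05, 5 arrays against 5. Over all kept probe sets 2.76% were called lower and 3.57% higher, which is 209 and 270 probe sets, and on the deposited scale, with no normalization between arrays, 96 were called lower and 480 higher. The median difference of the 9 members was 0.01, beside -0.02 over all kept probe sets. All 9 probe sets passed the filter, which asks for a value above the floor, an intensity of 351, on at least 5 of the 10 arrays.

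**Figure D1:**
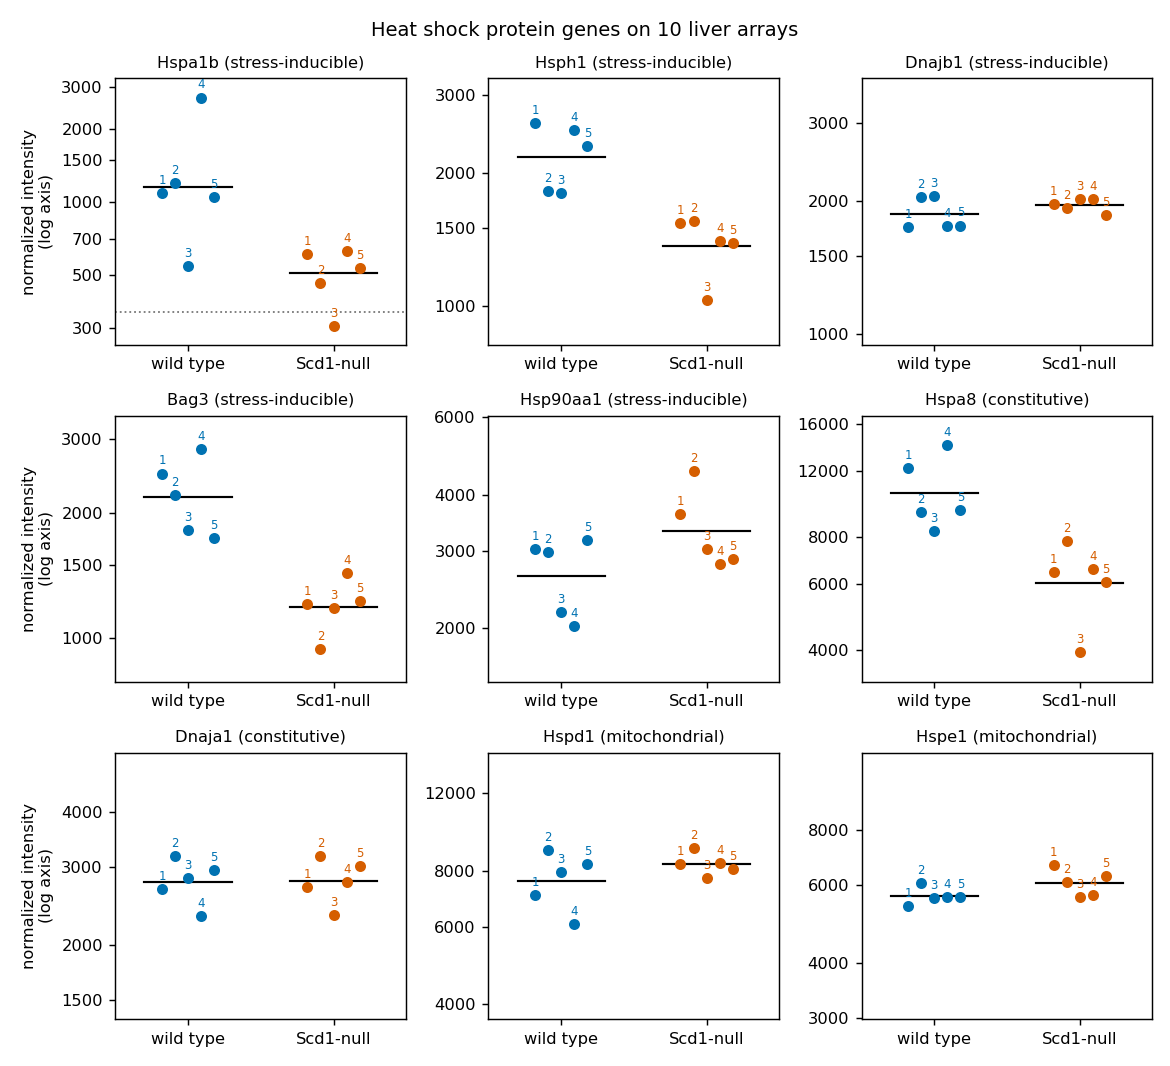
Normalized intensity on a log axis for the 9 measured heat shock genes, 1 panel per gene, with 1 point per mouse numbered by replicate and a black line at the geometric mean of each group. Hsph1, Bag3 and Hspa8 show no overlap between wild type (blue) and Scd1-null (orange), Hspa1b overlaps through WT 3, and in the other 5 panels the groups overlap; the dotted line is the floor of 351.

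Hspa1b, the strongly heat-inducible cytosolic HSP70, had the largest difference of the 9 and also the widest spread. Its normalized intensity was 1088, 1200, 543, 2715 and 1047 in WT 1 to 5 and 609, 460, 307, 628 and 532 in null 1 to 5. WT 4 was by far the highest array, while WT 3 lay among the Scd1-null values, and null 3 lay below the floor. The wild-type mean was 1319 ± 820 and the Scd1-null mean 507 ± 130.2 (SD, n = 5 each). Hspa1b fell by 1.19 on the log2 scale (SE 0.32, 95% interval -1.88 to -0.49, limma adjusted p = 0.0464), a 2.28-fold difference. That call rested on single arrays: it was lost in 8 of the 10 fits that left out 1 array, with an adjusted p of 0.0549 to 0.103, and kept without WT 3 (0.0201) or WT 4 (0.031). Without WT 4 the difference was -0.88. Hspa1a, the neighbouring and nearly identical gene, has a probe set of its own, with a mean of 829 ± 154 in wild-type and 910 ± 42.4 in Scd1-null mice (SD, n = 5 each), a log2 difference of 0.15 (95% interval -0.12 to 0.43, limma adjusted p = 0.471). Transcripts of both copies could bind either probe set, so which copy the Hspa1b values come from is uncertain.

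Hspa8 encodes the constitutive HSP70, abundant in unstressed cells and also used in clathrin uncoating and chaperone-mediated autophagy. Its intensity was 12250, 9329, 8303, 14051 and 9443 in WT 1 to 5 and 6463, 7807, 3944, 6558 and 6066 in null 1 to 5. Every Scd1-null array lay below every wild-type array, with null 2 and WT 3 the closest pair. Among all kept probe sets 4.1% had groups that did not overlap in this direction and 4.03% in the other, where no member stood. Hspa8 fell by 0.80 on the log2 scale (SE 0.18, 95% interval -1.18 to -0.42, limma adjusted p = 0.0209), from 10675 ± 2389 to 6168 ± 1404 (SD, n = 5 each), a 1.74-fold difference. The difference was -0.69 without WT 4 (adjusted p = 0.0219) and -0.65 without null 3, and the call was lost without WT 1 (adjusted p = 0.054). On the deposited scale the difference was -0.62 and the call was lost as well (adjusted p = 0.0728).

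Hsph1 encodes HSP110, a relative of HSP70 that acts as its nucleotide exchange factor and helps to dissolve aggregates. It read 2599, 1822, 1806, 2497 and 2296 in WT 1 to 5 and 1544, 1561, 1030, 1402 and 1386 in null 1 to 5. The groups did not overlap, and null 3 was again the lowest array. Hsph1 fell by 0.67 on the log2 scale (SE 0.14, 95% interval -0.97 to -0.37, limma adjusted p = 0.0177), a 1.59-fold difference, and it stayed called without any single array, at an adjusted p of 0.0191 to 0.046.

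Bag3 encodes a cochaperone that couples HSP70 and small heat shock proteins to selective autophagy. It read 2481, 2200, 1819, 2848 and 1735 in WT 1 to 5 and 1208, 942, 1179, 1434 and 1224 in null 1 to 5. Here too the groups did not overlap, and null 2 rather than null 3 was the lowest array. Bag3 fell by 0.88 on the log2 scale (SE 0.15, 95% interval -1.19 to -0.56, limma adjusted p = 0.00743), a 1.84-fold difference. It had the smallest p of the 9 members, ranking 44 among the 7569 kept probe sets, and stayed called without any single array, at an adjusted p of 0.00482 to 0.0254.

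The stress-inducible class did not move as a block. Dnajb1, the J-domain partner of inducible HSP70, read 1741 to 2053 in wild type, with a median array of 1758, and 1853 to 2022 in Scd1-null, with the groups overlapping. Its log2 difference was 0.07 (SE 0.08, 95% interval -0.10 to 0.25, limma adjusted p = 0.606), so the interval lay wholly above those of Hspa1b, Hsph1 and Bag3. Hsp90aa1, the inducible cytosolic HSP90, read 3025, 2983, 2174, 2023 and 3174 in WT 1 to 5 and 3630, 4538, 3031, 2795 and 2875 in null 1 to 5. Only null 1 and null 2 lay above all wild-type arrays, and WT 3 and WT 4 were low. The log2 difference of Hsp90aa1 was 0.33 (SE 0.16, 95% interval -0.01 to 0.68, limma adjusted p = 0.2). It was 0.22 without null 2 and 0.09 with the fluidics run as a block. Set against each other within an array, the log2 ratio of Hsph1 to Dnajb1, centred on its mean, ran from -0.83 to -0.16 in Scd1-null and from -0.04 to 0.72 in wild type, which do not overlap. The centred log2 ratio of Hspa8 to Hsp90aa1 likewise ran from -1.05 to -0.20 in Scd1-null and from 0.15 to 1.37 in wild type. Of the other pairs set against each other, Hspa8 to Hspa5 did not overlap either, whereas Hspa1b to Hspa1a (-1.12 to -0.41 in Scd1-null, -0.64 to 1.63 in wild type) and Hspd1 to Hspe1 (-0.12 to 0.13 and -0.33 to 0.12) did. Hsph1 and Hspa8 already had groups that did not overlap on their own, so the separation of their ratios adds little. The pairs were chosen with results of these data known, so these ranges are a description.

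**Figure D2:**
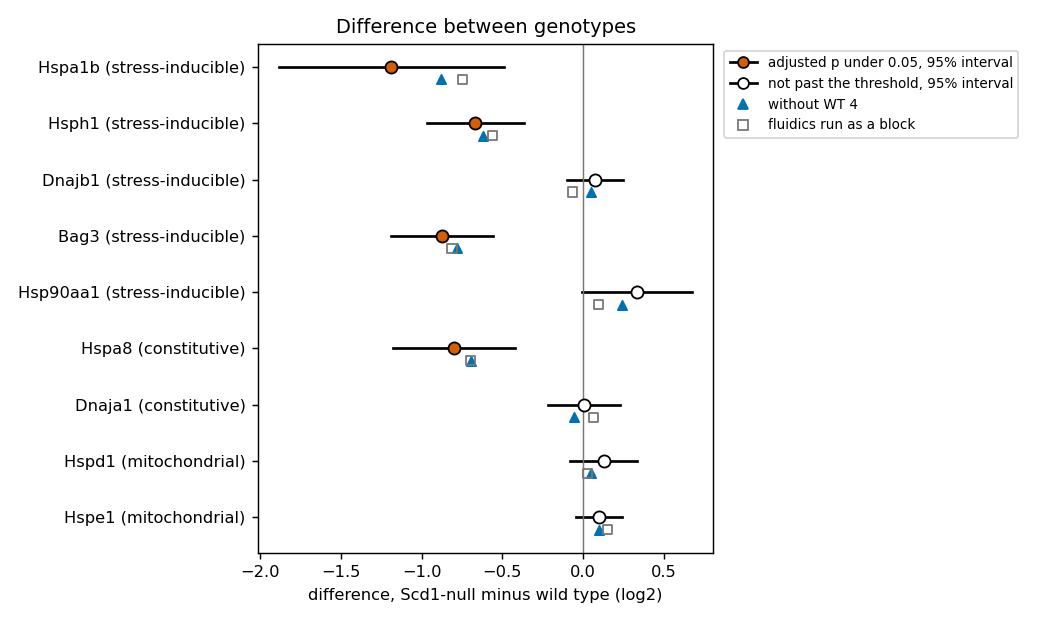
Difference between Scd1-null and wild type on the log2 scale for each member, with 95% intervals from limma (filled, adjusted p under 0.05), the value without WT 4 (triangles) and the value with the fluidics run as a block (squares). The 4 filled points lie between -1.19 and -0.67 and keep their sign in both alternatives; the 5 open points lie between 0.01 and 0.33.

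The remaining cytosolic member and the mitochondrial pair differed little between genotypes. Dnaja1, a J-domain partner of constitutive HSP70, read 2328 to 3174 in wild type and 2345 to 3186 in Scd1-null, a log2 difference of 0.01 (95% interval -0.22 to 0.23, limma adjusted p = 0.979). Hspd1, the mitochondrial HSP60, read 6089 to 8951 in wild type and 7743 to 9039 in Scd1-null, with a log2 difference of 0.13 (95% interval -0.08 to 0.33, limma adjusted p = 0.422), or 0.0454 without WT 4. Hspe1, its HSP10 cap, read 5365 to 6045 in wild type and 5627 to 6645 in Scd1-null, with a log2 difference of 0.10 (95% interval -0.04 to 0.24, limma adjusted p = 0.357). In Hspe1 3 of the 5 Scd1-null arrays lay above all wild-type arrays, and in Hspd1 1 did. The 3 intervals exclude a fall as large as the 0.67 of Hsph1, but an interval that includes 0 does not show equal levels.

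By class, 3 of the 5 stress-inducible members were called lower, 1 of the 2 constitutive ones and 0 of the 2 mitochondrial ones. Over all kept probe sets 2.76% were called lower. The median log2 difference was -0.67 in the stress-inducible class, -0.40 in the constitutive class and 0.11 in the mitochondrial class, beside -0.02 over all kept probe sets. The mean of the stress-inducible members, each centred on its own mean over the 10 arrays, was -0.23 ± 0.13 (SD, n = 5) in Scd1-null and 0.23 ± 0.23 in wild type. On single arrays this class mean ran from -0.44, in null 3, to -0.11, in null 1, and in wild type from -0.12, in WT 3, to 0.50, in WT 4. WT 3 thus lay at the level of the highest Scd1-null array. For the mitochondrial class the same mean was 0.06 ± 0.07 in Scd1-null and -0.06 ± 0.13 in wild type. The boundary between lower and not called therefore ran through the inducible and constitutive classes, since Hspa8 was on one side with Hspa1b, Hsph1 and Bag3, and Dnajb1 and Hsp90aa1 were on the other.

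**Figure D3:**
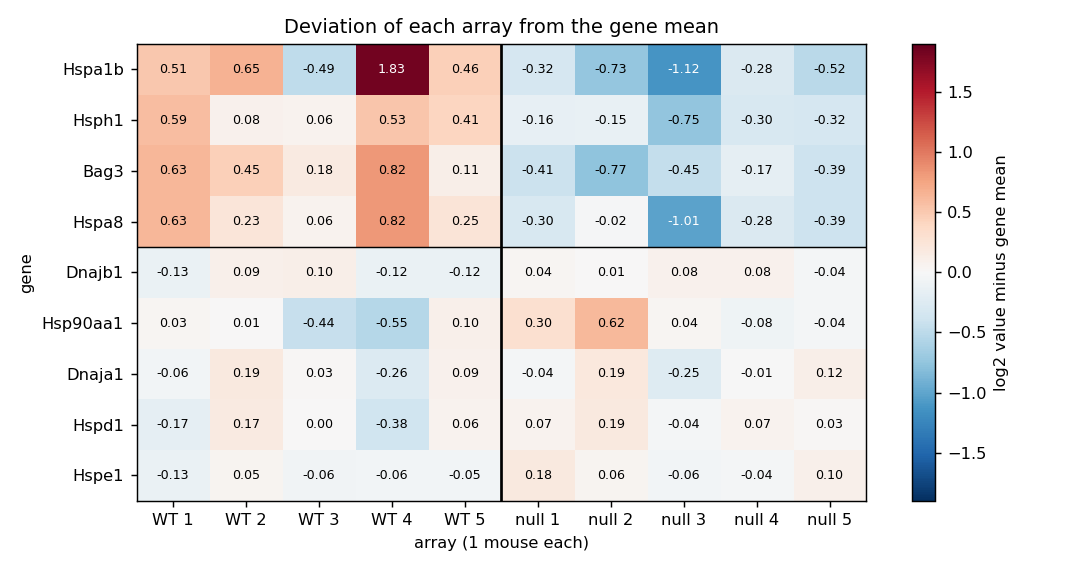
Log2 value minus the gene's mean over the 10 arrays, 1 row per gene (the 4 genes called lower above the line) and 1 column per mouse, with wild type on the left. WT 4 has the highest value in Hspa1b (1.83), Bag3 and Hspa8 (0.82 each) and the lowest in Hsp90aa1 (-0.55), Dnaja1 (-0.26) and Hspd1 (-0.38); null 3 is the lowest array in Hspa1b, Hsph1 and Hspa8.

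Single mice differed within a genotype in ways that crossed the members. WT 4 was the highest wild-type array for 3 of the 4 genes called lower and the lowest for 3 of the 5 others, namely Hsp90aa1, Dnaja1 and Hspd1. WT 3 was the lowest wild-type array for Hspa1b, Hsph1 and Hspa8. After subtracting each group's mean, Hsph1 and Hspa8 varied together over the 10 arrays, with r = 0.903, or 0.904 without WT 4. Hspa1b went with Hspa8 at r = 0.704 (0.603 without WT 4) and with Bag3 at r = 0.706 (0.534), whereas Bag3 and Hsph1 did so less closely, at r = 0.235 (0.089). Dnaja1 and Hspd1 formed another close pair, at r = 0.856 (0.786 without WT 4), while the neighbours Hspd1 and Hspe1 stood at 0.373 (0.518). Hsph1 and Dnajb1 ran opposite to each other, at r = -0.759 (-0.732). All of these values share the arrays, their normalization and 10 points, and they are given as a description.

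Among 5914 other genes ranked by likeness to the mean of the stress-inducible members over the 10 arrays, the highest Pearson r was that of Tmed4, at 0.939, with a log2 difference of -0.28 between genotypes (limma adjusted p = 0.039). St3gal4 (0.923), Nip7 (0.92), Sec23ip (0.919), Dnajb9 (0.914) and Txnl4a (0.913) followed. When each group's mean was first subtracted, so that only differences between mice of 1 genotype counted, the ranking was led by other genes: Nbr1 (0.939), Rrn3 (0.923), Commd7 and Rps4x (0.916 each), D2hgdh (0.909) and Stab1 (0.9). None of these last 6 was called between genotypes by limma, with log2 differences from -0.15 to 0.10. Each ranking gives the best of 5914 genes over 10 arrays, so high values of r are a feature of the ranking.

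The hybridisation run limits every one of these differences. Run 1 held Scd1-null arrays only and run 3 wild-type arrays only, so with the run as a block each value comes from null 5 against WT 1 to 3. In that fit the log2 differences were -0.74 for Hspa1b (adjusted p = 0.532), -0.70 for Hspa8 (0.342), -0.56 for Hsph1 (0.324) and -0.81 for Bag3 (0.228), and 0 of the 9 members were called. The fit called 7 probe sets higher and 7 lower in all, and within run 2 alone, by limma, 0 were called higher and 1 lower, with 1300 of the 7569 at an unadjusted p under 0.05. The signs of the 4 genes were kept, while Hspa1b shrank by over 1.5 times. Whether the run takes part in the differences was not tested.

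Further chaperones and cochaperones were read through 7 lists, which hold no member. Together they had 74 kept probe sets for 54 genes, with a median log2 difference of 0.06. Of the 74, 6 were called higher and 4 lower, beside 3.57% and 2.76% of all kept probe sets. The factors that drive the response were hardly measured. Hsf1, the gene of heat shock factor 1, had no probe set under its symbol alone, and Hsf2 lay at or below the floor on all arrays. Hsf4 and Hsbp1, a factor and a negative regulator of heat shock factor 1, were not called, at log2 differences of -0.03 (limma adjusted p = 0.917) and 0.36 (adjusted p = 0.145). The inducible small heat shock proteins Hspb1 and Cryab were above the floor on 1 and 2 of the 10 arrays and were not tested.

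In the list of other HSP70 proteins and their cochaperones 1 of 24 kept probe sets was called higher and 1 lower. The shares over all kept probe sets were 3.57% and 2.76%. St13, which stabilises HSP70 with a bound client, rose by 0.54 on the log2 scale at 1 probe set (limma adjusted p = 0.0275), and at its brighter one the difference was 0.38 (adjusted p = 0.0572), with no overlap between groups at either. The first St13 call was lost without null 1, null 2, null 3 or WT 3 (0.0534 to 0.0756), and with the run as a block the value was 0.26 (adjusted p = 0.576). Dnajb6, a J-domain protein that holds back aggregation, fell by 0.33 at 1 probe set (adjusted p = 0.0385) and differed by 0.18 at the other (adjusted p = 0.43), so its direction depends on the probe set. The Dnajb6 call was lost in 7 of the 10 fits that left out 1 array (0.0604 to 0.0977). Hspa4, another HSP110 relative, gave a difference of 0.00 at the brightest of its 4 probe sets (adjusted p = 0.992) and of -0.55 at the one furthest from 0 (adjusted p = 0.0807), which was dim.

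Of 13 kept probe sets for HSP90 cochaperones 2 were called higher and 0 lower, beside 3.57% and 2.76% of all kept probe sets. Fkbp4, an immunophilin of steroid receptor complexes, rose by 0.64 on the log2 scale at 1 probe set (limma adjusted p = 0.0127), from 2164 ± 189 to 3403 ± 619 (SD, n = 5 each), while its brighter probe set differed by 0.14 (adjusted p = 0.391). Ppid, another immunophilin that binds HSP90, rose by 0.53 (adjusted p = 0.0217), from 694 ± 57.6 to 1009 ± 149 (SD, n = 5 each), with no overlap between groups. Ppid was no longer called when null 1, null 2 or WT 1 was left out (0.0533 to 0.0614). Stip1, which bridges HSP70 and HSP90, differed by 0.07 (adjusted p = 0.793) and Chordc1 by -0.11 (adjusted p = 0.532).

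Small heat shock proteins gave 1 call, a lower one, among 4 kept probe sets, beside 2.76% of all kept probe sets called lower. Cryaa, the lens alpha-A crystallin, fell by 0.29 (limma adjusted p = 0.0393), a call lost in 9 of the 10 fits that left out 1 array (0.0517 to 0.0956) and kept without WT 4. The cytosolic chaperonin and prefoldin list gave 0 calls by limma among 8 kept probe sets, with a median log2 difference of 0.15. The list of other mitochondrial chaperones and proteases also gave 0 calls by limma among 8, and its median was 0.22. In it Hspa9, the mitochondrial HSP70, differed by 0.38 (adjusted p = 0.059), its exchange factor Grpel1 by 0.41 (adjusted p = 0.0643) and the protease Clpp by 0.46 (adjusted p = 0.0605), none of them past the threshold. Clpx, the partner of Clpp, lay the other way, at -0.32 (adjusted p = 0.116) and -0.36 (adjusted p = 0.22) at its probe sets, also uncalled. Of 15 kept probe sets for chaperones of the endoplasmic reticulum 3 were called higher and 2 lower. Over all kept probe sets these shares were 3.57% and 2.76%. Pdia3, a disulfide isomerase, rose by 0.66 (limma adjusted p = 0.00336), and Pdia6, another, rose by 0.74 (0.0159) and 0.60 (0.0129) at 2 of its 3 probe sets and differed by 0.45 at the remaining one (0.0662). Pdia4, of the same family, differed by 0.07 (adjusted p = 0.79). Dnajb9, a J-domain partner in the reticulum, fell by 1.10 (limma adjusted p = 0.00614) at 1 dim probe set. That probe set was above the floor on 6 of the 10 arrays. There null 1, null 2, null 3 and null 5 lay below the floor, so size and spread rest on floored values. At the brighter Dnajb9 probe set, with a difference of -1.12 (0.0228), the call was lost without null 1, null 2, null 5 or WT 1 (0.055 to 0.0612). The reticulum's HSP70, Hspa5, differed by -0.04 (adjusted p = 0.873).

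**Figure D4:**
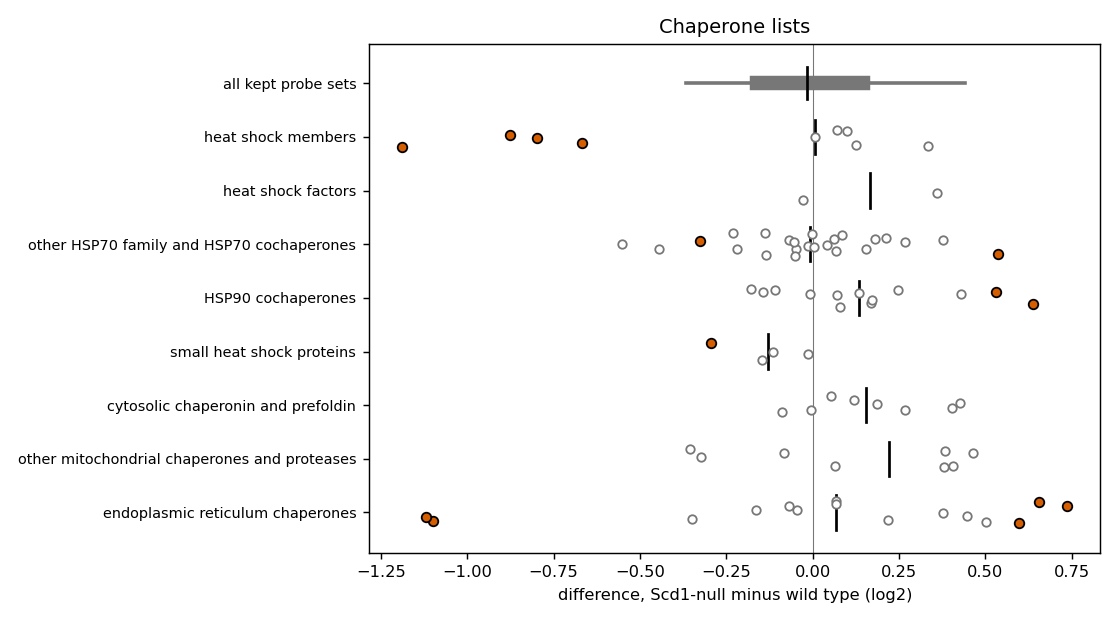
Difference between Scd1-null and wild type on the log2 scale for each kept probe set (points, filled where the adjusted p is under 0.05) of the heat shock members and the 7 other chaperone lists, with list medians as black ticks. The grey bar on top gives the quartiles and the 5th to 95th percentiles of all kept probe sets, whose median is -0.02; the 4 filled heat shock members lie at -0.67 or lower, and the HSP90 cochaperone calls lie at 0.53 and 0.64.

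Other signals moved with genotype beside these genes, and their part in the differences was not tested. The summed intensity of the 4 kept lymphocyte marker probe sets was 12011 to 12546 in Scd1-null and 13620 to 14703 in wild type, which do not overlap. Most of the sum came from Cd4 (means of 4482 in Scd1-null and 5477 in wild type) and 1 Ms4a1 probe set (6508 and 7264). Of the 4, 1 was called lower, Cd4 (log2 difference -0.29, limma adjusted p = 0.0421), beside 2.76% of all kept probe sets. Only the Ms4a1 probe set had groups that did not overlap, and it was not called (adjusted p = 0.122). Cd3g, Cd8a and the other Ms4a1 probe set did not pass the filter. The summed intensity of the 3 kept Kupffer cell markers was 7970 to 8961 in Scd1-null and 8731 to 10497 in wild type, and none was called by limma. Endothelial markers summed to 9418 to 11031 and 9497 to 11393, stellate or fibroblast markers to 11190 to 12321 and 11502 to 14201, and erythroid markers to 21399 to 26056 and 23007 to 25262, in Scd1-null and wild type, with 0 called by limma. Of the bile duct markers 1 passed the filter, Krt7, which was dim in both groups.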

How the data were processed

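The authors deposited 1 table of linear intensity values, 10043 probe sets by 10 arrays. All were whole numbers, 1.19% of them negative. The sources used here do not say how probe pairs were summarised. The other deposited files, of other settings rather than measurements, hold chip lot, fluidics module and hybridisation time per array. Runs were separated at gaps of over 1 hour. Means of the arrays after trimming 2% from both ends spanned 19.8%, over the limit of 1% set for leaving them as deposited, so arrays were quantile normalized after leaving out 66 control probe sets. Values were floored at the 25th percentile (351) and taken to log2, and a probe set was kept if above the floor on at least 5 of 10 arrays, which kept 7569. Symbols come from the platform annotation and were updated by gene ID through a RefSeq table of GRCm38.p6: 8724 had 1 symbol, 346 several and 907 none. Probe sets with several symbols were left without one, so any that name a member or a list gene among others were not read for it.

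The 5 Scd1-null and 5 wild-type arrays were compared by limma 3.58.1 (R 4.3.3; lmFit, eBayes with intensity trend, two-sided). The procedure was tested on simulated data. Python 3.11.15, pandas 2.3.3 and matplotlib 3.10.9 served for tables and figures. The members and lists were chosen with earlier results of these data known, so no p is given over the members and no list was tested as a set. Named genes were all members, up to 4 called genes per list by smallest p, and the 6 genes most like the stress-inducible mean over all arrays and within groups; uncalled list genes were named after their values were seen. Arrays give no counting depth, and their number limits the precision. Alternatives were the scale, the floor, the filter, the variance model, blocks and leaving out arrays. Background correction could not be varied on summarised values.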

Additional observations from a re-analysis of the deposited data

Results flagged for a closer look

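Each member was screened in each group of 5 arrays for a value standing apart by Dixon's criterion, and 1 of the 18 screens found one. Hsph1 on null 3 read 1030, and its gap to the next Scd1-null array was 0.714 of the group's whole log2 range, just over the critical 0.71. Chance gives about 1 in 20 such groups. Without null 3 the log2 difference of Hsph1 was -0.57 (limma adjusted p = 0.0324).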

How the results depend on the processing

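The 4 lower calls kept their sign in every alternative run. Of the 9 members 4 were called lower, but 1 with no filter on dim probe sets (9977 tested), 0 with the fluidics run as a block or within run 2, and 2 to 4 when 1 array was left out, 2 being without WT 1. With the replicate block 4 were called lower, at adjusted p 0.0162 to 0.0275 for Bag3, Hspa8, Hsph1 and Hspa1b, and it changed no member's call, while over all probe sets it called 151 higher and 68 lower in place of 270 and 209; same-numbered mice deviated together at correlations of only -0.127 to 0.108, with 1 of 5 Scd1-null arrays closest to its own number, so the numbers are not a pairing. None was called higher in any setting. Hspa1b passed narrowly and lost its call with a floor at the 10th (0.0538) or 40th percentile (0.0556), a pseudocount of 16 (0.0561), no trend (0.0561) or robust eBayes (0.0699); a filter at the median left it out, which moved the stress-inducible median from -0.67 to -0.30, and that median was -0.74 to -0.57 with 1 array left out. With no filter Hspa1b (0.126), Hspa8 (0.0776) and Hsph1 (0.0513) lost their calls. The mitochondrial median was 0.28 on the deposited scale, and 0.07 to 0.15 with 1 array left out; the constitutive median was -0.25 on the deposited scale in place of -0.40, and -0.47 to -0.29 with 1 array left out. Among the uncalled members the deposited scale gave 0.46 for Hsp90aa1, 0.30 for Hspd1, 0.27 for Hspe1, 0.16 for Dnajb1 and 0.12 for Dnaja1. On that scale 7 of the 9 members had an unadjusted limma p under 0.05, against 4 in the main fit. With arrays scaled to a common 75th percentile the number was also 7. There Hsp90aa1 gave 0.37, Hspd1 0.21, Hspe1 0.18, Dnajb1 0.07 and Dnaja1 0.03, all uncalled. Dnajb1 turned to -0.0645 with the run as a block and within run 2. Dnaja1, near 0, ran from -0.0584 to 0.0687 with 1 array left out, turning negative without null 2 (-0.0418), null 5 (-0.0232), WT 1 (-0.0079) or WT 4 (-0.0584). In the 7 other lists the 4 lower and 6 higher calls became 2 and 12 on the deposited scale, 12 higher with array weights, 2 lower with the replicate block, and 0 and 0 with the run as a block or within run 2; with 1 array left out they ran from 1 to 5 lower and from 4 to 11 higher, 11 being without WT 4 and 10 without null 4, and lower calls were 1 without null 1, null 2 or null 5 and 2 without null 3, WT 1, WT 2, WT 3 or WT 5. Over all probe sets the calls were 517 higher and 497 lower with array weights, 152 and 151 with no filter, and from 102 to 491 higher and 62 to 449 lower with 1 array left out, the most without WT 4 and the fewest without null 2. The causes were not tested. Dim values near the floor, 5 mice a group and the layout of runs limit the precision. Leaving out WT 3, whose file carries the comment, kept all 4 members called.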

Other observations

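Genes that respond within minutes to stimuli did not share one direction. Of 13 kept probe sets of immediate early genes 2 were called higher and 1 lower, beside 3.57% and 2.76% of all kept probe sets. Zfp36, which destabilises inflammatory mRNAs, rose by 0.53 on the log2 scale (limma adjusted p = 0.0152), from 1943 ± 197 to 2823 ± 392 (SD, n = 5 each), and Egr1, a transcription factor, rose by 0.53 (adjusted p = 0.0241), a call lost without null 2, null 3, WT 2 or WT 3 (0.0503 to 0.07). Atf3, a stress-induced transcription factor, fell by 0.55 at 1 probe set (adjusted p = 0.0248), lost without null 2, null 5, WT 1, WT 2 or WT 3 (0.0501 to 0.0627), and differed by -0.15 at the other (adjusted p = 0.461). None of the 3 was called with the run as a block.

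Clock genes gave 1 call, a lower one, among 12 kept probe sets, beside 2.76% called lower over all kept probe sets. Cry1, a repressor of the clock, fell by 0.51 (limma adjusted p = 0.0447), a call lost in 8 of the 10 fits that left out 1 array (0.0503 to 0.096). Their summed intensity was 25684 to 26654 in Scd1-null and 27269 to 30659 in wild type, which do not overlap. Nfil3 at 1 bright probe set, 13058 ± 169 in Scd1-null and 15027 ± 1343 in wild-type mice (SD, n = 5 each), made up most of that gap without being called (limma adjusted p = 0.077), and the median log2 difference of the list was 0.06. The sources used here do not give the hour of collection.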
